A study of Homo sapiens with 36 samples.

Results

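The regions described here are the places at gene promoters where PHF19 was bound in DU145 prostate cancer cells and EZH2 was not called in both replicates. They were chosen by position and by peak calls. A region qualified when it was listed by the authors as bound by PHF19 over input, overlapped the stretch within 2.5 kb of a protein-coding transcript start in hg19, and overlapped no EZH2 region, where an EZH2 region means overlapping EZH2 peaks from both control replicates merged together. Of 1245 listed PHF19 regions, 439 (35.3%) met the rule. A further 356 lay at promoters and overlapped an EZH2 region, and 450 lay away from promoters. Absence of EZH2 was thus selected on, and the EZH2 counts given for these members describe the selection only.

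The study asked what PHF19 does in advanced prostate cancer by lowering it with hairpin RNAs and mapping Polycomb proteins by ChIP-seq. All libraries came from the DU145 line, an established cell line derived from a prostate carcinoma. The groups compared were shCTR, which carried a control hairpin, and shPHF19L#4, which carried a hairpin against the long isoform of PHF19. Each target (PHF19, EZH2, SUZ12, H3K27me3 and MTF2) was mapped in 2 separate libraries per hairpin, and 1 hairpin stood for the depletion.

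PHF19 and MTF2 are Polycomb-like proteins, accessory partners of Polycomb repressive complex 2. The core of that complex contains EZH2, the enzyme that methylates lysine 27 of histone H3, and SUZ12, a scaffold subunit, and its product H3K27me3 marks silenced developmental genes. Polycomb-like proteins carry a Tudor domain that reads methylated histone H3 and a winged-helix fold that binds unmethylated CpG-rich DNA, and in prostate cancer EZH2 is known as a protein that rises with progression.

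Because Polycomb-like proteins bind CpG-rich DNA, stretches of 200 bases from inside the members are printed here before any value, with each CpG in capitals. All are reference sequence of GRCh37 (hg19), read 5′ to 3′ on the strand of the named gene, and each was placed outside every annotated exon. Members were divided by whether they overlapped an H3K27me3 region and an MTF2 region called in both shCTR replicates, so that a member of the class with neither may still have a peak in 1 replicate. From each of the 4 classes the stretch with the most CpG is shown for a member at the top of its class by PHF19 score. NPAS3, a transcription factor gene of neurons, shared the highest score of the class with both H3K27me3 and MTF2 with MECOM and had more replicate 1 tags, and its stretch at chr14:33408593-33408792 on the plus strand held 33 CpG. MYO10, a myosin of filopodia, headed the class with H3K27me3 only, with 29 CpG at chr5:16935553-16935752 on the minus strand. GATA6, an endoderm transcription factor, followed it in that class, with 21 CpG at chr18:19748996-19749195 on the plus strand. BNC1, a zinc finger gene of epithelia, headed the class with MTF2 only, with 34 CpG at chr15:83953420-83953619 on the minus strand. IGF1R, the receptor of insulin-like growth factor, headed the class with neither, with 27 CpG at chr15:99192934-99193133 on the plus strand.
NPAS3: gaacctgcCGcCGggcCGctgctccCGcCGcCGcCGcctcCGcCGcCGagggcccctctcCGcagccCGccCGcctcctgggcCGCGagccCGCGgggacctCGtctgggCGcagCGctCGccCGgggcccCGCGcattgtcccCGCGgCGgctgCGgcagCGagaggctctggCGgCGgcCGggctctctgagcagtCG
MYO10: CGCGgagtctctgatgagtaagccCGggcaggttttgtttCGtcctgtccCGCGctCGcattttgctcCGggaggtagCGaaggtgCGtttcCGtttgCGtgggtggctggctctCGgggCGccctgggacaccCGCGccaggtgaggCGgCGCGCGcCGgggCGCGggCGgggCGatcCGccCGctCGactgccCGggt
GATA6: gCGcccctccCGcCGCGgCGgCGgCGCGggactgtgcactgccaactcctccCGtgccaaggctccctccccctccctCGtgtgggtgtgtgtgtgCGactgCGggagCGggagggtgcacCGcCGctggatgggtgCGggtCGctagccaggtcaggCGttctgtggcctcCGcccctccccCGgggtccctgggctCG
BNC1: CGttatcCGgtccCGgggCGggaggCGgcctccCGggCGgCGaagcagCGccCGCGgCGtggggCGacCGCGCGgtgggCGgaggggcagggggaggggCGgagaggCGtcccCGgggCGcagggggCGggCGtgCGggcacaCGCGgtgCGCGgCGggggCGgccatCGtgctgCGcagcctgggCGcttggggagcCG
IGF1R: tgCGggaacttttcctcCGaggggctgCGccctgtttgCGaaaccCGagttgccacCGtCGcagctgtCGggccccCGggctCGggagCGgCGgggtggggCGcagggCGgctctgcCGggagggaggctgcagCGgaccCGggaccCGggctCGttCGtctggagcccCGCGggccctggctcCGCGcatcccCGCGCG

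Genes that the study names as PHF19 targets supplied another set. EGLN3, a prolyl hydroxylase of the hypoxia pathway, held 21 CpG at chr14:34420288-34420487 on the minus strand. SOX9, a transcription factor of prostate and cartilage development, held 21 CpG at chr17:70116279-70116478 on the plus strand. LOX, the enzyme that cross-links collagen, held 10 CpG at chr5:121414132-121414331 on the minus strand. The last stretch is shown for contrast. It surrounds the midpoint of the member with the lowest CpG ratio, upstream of HOXD13 at chr2:176954676-176954875 on the plus strand, and contained no CpG.
EGLN3: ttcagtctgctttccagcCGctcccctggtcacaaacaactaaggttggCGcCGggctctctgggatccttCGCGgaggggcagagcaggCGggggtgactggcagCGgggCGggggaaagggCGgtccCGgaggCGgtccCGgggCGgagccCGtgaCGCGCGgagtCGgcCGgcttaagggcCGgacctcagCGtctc
SOX9: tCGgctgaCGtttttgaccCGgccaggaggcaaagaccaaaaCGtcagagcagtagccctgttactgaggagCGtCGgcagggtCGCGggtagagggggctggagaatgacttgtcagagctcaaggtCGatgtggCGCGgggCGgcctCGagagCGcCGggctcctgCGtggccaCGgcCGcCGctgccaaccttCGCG
LOX: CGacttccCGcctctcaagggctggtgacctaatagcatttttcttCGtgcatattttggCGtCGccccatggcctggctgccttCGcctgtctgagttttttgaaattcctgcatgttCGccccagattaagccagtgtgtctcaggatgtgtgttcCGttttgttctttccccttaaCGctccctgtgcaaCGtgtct
HOXD13: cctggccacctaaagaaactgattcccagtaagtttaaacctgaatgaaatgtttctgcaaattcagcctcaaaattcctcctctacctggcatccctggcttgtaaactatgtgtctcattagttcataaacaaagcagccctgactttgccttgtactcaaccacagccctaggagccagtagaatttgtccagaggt

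The printed stretches were picked for their CpG, high or low, so CpG content was then measured over every member. CpG dinucleotides are rare in most of the human genome, because methylated cytosine mutates, and remain frequent in the unmethylated islands around many promoters. The observed over expected ratio divides the count of CpG by the count that the C and G content alone would give. In the 1 kb around the midpoint of each region, the members had a median ratio of 0.761 with quartiles of 0.624 and 0.846. The median was 0.748 in promoter regions with EZH2, 0.519 in PHF19 regions away from promoters and 0.728 in all protein-coding promoters. A ratio of at least 0.6, a common limit for a CpG island, was reached by 342 members (77.9%), against 78.4% of the promoter regions with EZH2, 39.6% of the regions away from promoters and 66.9% of all promoters. The members were thus as rich in CpG as the promoter regions with EZH2, and the median of all promoters lay close to both. The lower quartile of all promoters was 0.422, below the 0.624 of the members. Windows of all promoters were centred on the start and not on a region.

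Within the members, the class with H3K27me3 and MTF2 had a median ratio of 0.784, the class with H3K27me3 only 0.731, the class with MTF2 only 0.764 and the class with neither 0.749. The quartiles of the classes overlapped throughout. The members held a median of 6.90 CpG per 100 bases and a median G plus C content of 61%. KLHL35 had the highest ratio at 1.08, followed by FOXP1 at 1.07, IRX4 at 1.06 and DUSP6 at 1.05. At the low end stood the region upstream of HOXD13 at 0.0399, the NPAS3 region at 0.0600 and the TMED3 region at 0.113. The NPAS3 region spanned 9365 bp, and its printed stretch of 33 CpG lay off its midpoint, where the 1-kb window had a G plus C content of 36.6%. A low ratio at the midpoint of a wide region therefore did not mean that the region lacked CpG.

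**Figure D1:**
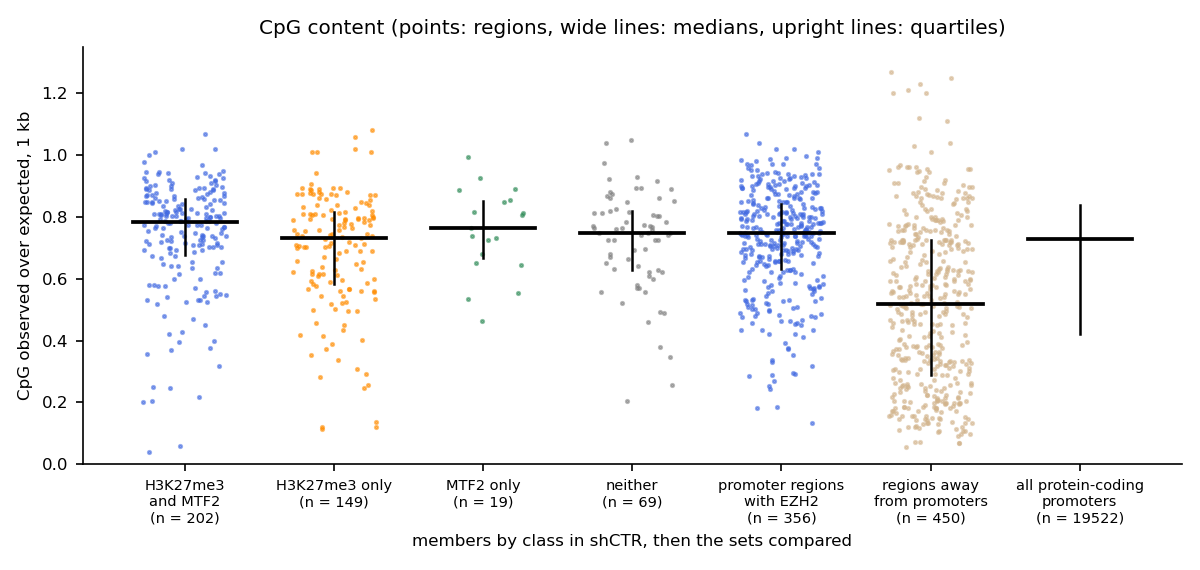
CpG observed over expected ratio in 1 kb around the midpoint of each PHF19 region, by class of the member in shCTR and for the sets compared, with medians and quartiles. The 4 classes have medians between 0.731 and 0.784, and the regions away from promoters lie lower at 0.519.

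Short sequence motifs were counted in the same 1-kb windows, on both strands, beside windows around all 19540 protein-coding starts. The motif of nuclear respiratory factor NRF1 was read by its first 8 letters, GCGCATGC, and occurred in 2.05% of members and 6.23% of promoters. The ETS motif CCGGAAG occurred in 10.5% of members and 22.4% of promoters, and the cAMP response element TGACGTCA in 1.14% and 3.52%. Those motifs, which belong to factors of broadly active promoters, were less frequent at the members, and the promoter regions with EZH2 had similar shares of 2.53%, 12.4% and 0.562%. For the GC box GGGCGG the shares were 81.5% of members and 77.2% of promoters. For the E-box CACGTG they were 19.1% and 18.3%, for the CCAAT box CCAAT 58.5% and 63.6%, and for the AP-1 site TGANTCA 12.3% and 15.1%. A match is a run of letters in a window, and the windows of the members were centred on the region and not on the start.

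Position relative to the gene was described next. A promoter in the wide sense used here reaches into the gene, and transcription factors and Polycomb proteins may sit on either side of the start. In 344 members (78.4%) the region contained a start, and in 95 it did not. The midpoint lay within 1 kb of a start in 337 members, at or downstream of the nearest start in 264 (60.1%) and upstream in 175. The median distance of the midpoint was 127 bp downstream, with a range from -4728 bp (upstream) to 4464 bp (downstream). By annotation the midpoint fell in an intron in 203 members (46.2%), between genes in 114 (26.0%), in an exon outside the coding part in 76 and in a coding exon in 46. Introns held 63.8% of the midpoints of the class with neither mark and 57.9% of those of the class with MTF2 only. The class with H3K27me3 only had 36.9% of its midpoints between genes. Promoter regions with EZH2 were placed much alike, with a start inside 86.8% and midpoints downstream in 64.6%, in an intron in 50.6% and between genes in 26.1%.

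The members reached 451 genes, which is 2.28% of the 19785 protein-coding genes, and 352 genes (1.78%) had a promoter region with EZH2. Most members (412) reached 1 gene, 26 reached 2 genes and 1 reached 3. More than 1 member lay at 16 genes. A member and a promoter region with EZH2 lay at the same gene in 18 cases, among them CITED1, CXCR4, GLI3, LHX4, MECOM, PAX6, PDGFA and PRDM13. The nearest EZH2 region of both replicates lay within 10 kb of 14 members and within 100 kb of 36, and the median distance was 2027382 bp. Only 500 such regions were called in the genome, and the rule itself sets a distance above 0.

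Some members stood close to the limits of the rule. Just inside the 2.5 kb limit lay the regions of NKX2-5 at 2352 bp from a start, OR2I1P at 2370 bp, MNX1 at 2418 bp and LHX3 at 2475 bp. Just outside it lay regions near AC127496.1 at 2530 bp, ISL2 at 2576 bp, SORCS2 at 2649 bp and GRIN3B at 2696 bp. The member nearest to an EZH2 region was that of PHF21B, 21 bp away, followed by CITED1 at 301 bp, CXCR4 at 337 bp and PRDM13 at 868 bp. On the other side, the promoter regions with the smallest share covered by EZH2 were those of LHX4 at 25.1%, PAX6 at 31.6%, MAML3 at 41.0% and NOTO at 46.8%.

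How strongly PHF19 was bound at the members was read from the peak lists. In ChIP-seq a peak is a place where sequenced fragments pile up over a control, and peak callers give each peak a number that grows with the pile. The replicate 1 list gave sequenced tags in the peak, with a lowest value of 26, and the replicate 2 list gave a MACS score, with a lowest value of 50. The lists differed in size, with 1072 peaks in replicate 1 and 14218 in replicate 2. A replicate 1 peak overlapped 248 members (56.5%), a replicate 2 peak 434 (98.9%), and a region called in both replicates 243 (55.4%). Among promoter regions with EZH2 the share called in both was 84.0%, and among regions away from promoters it was 45.3%.

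The members had a median of 51.5 tags in replicate 1, with a range of 26 to 478, and promoter regions with EZH2 a median of 99. In replicate 2 the median score was 312, with a range of 57.3 to 3100, against 731 in promoter regions with EZH2 and 255 in regions away from promoters. Members were also narrower, with a median width of 2138 bp against 3272 bp. Lower PHF19 peak values where EZH2 was not called in both replicates were thus seen in each PHF19 replicate. The part of region width in them was not tested. The authors' log2 mean over both replicates had a median of 6.29 for PHF19 and 4.75 for input at the members, and of 7.20 and 5.42 at promoter regions with EZH2. Input was thus lower at the members as well, and its part in the PHF19 difference was not tested. Across the 243 members with a value in both replicates, the tags of replicate 1 and the score of replicate 2 rose together, with a Spearman correlation of 0.68 given as a description, since the points share their libraries.

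Replicate 2 scores by class had medians of 352 with H3K27me3 and MTF2, 298 with H3K27me3 only, 308 with MTF2 only and 244 with neither. Replicate 1 tags had medians of 49, 54.5, 37.5 and 51 in the same order. The order of the classes therefore differed between the replicates, and the spread within each class was far wider than the distance between medians.

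**Figure D2:**
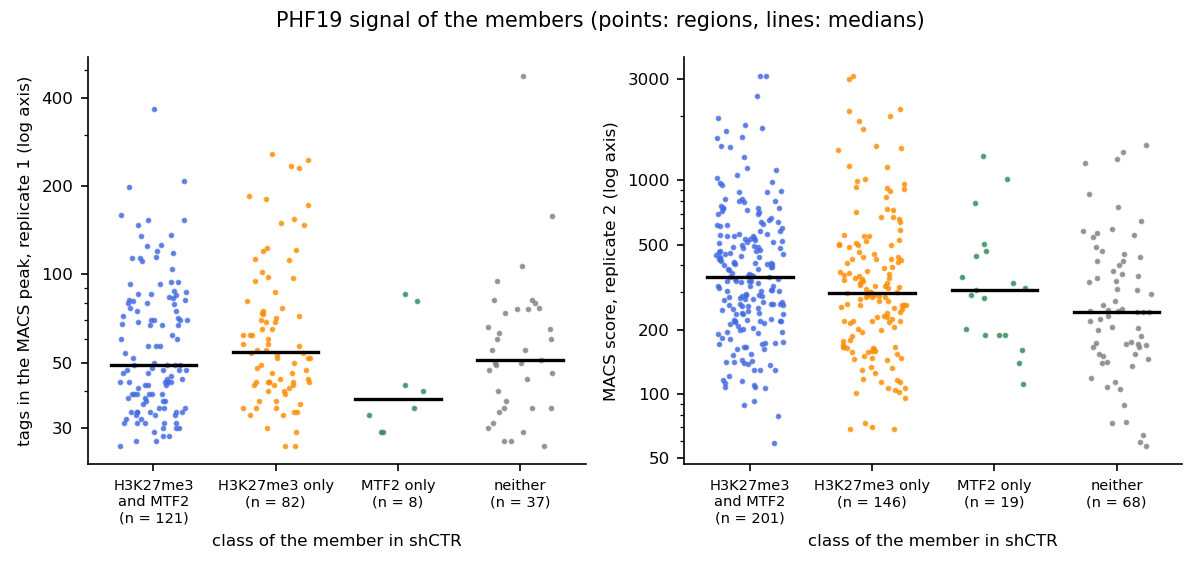
PHF19 signal of each member that had a peak, as tags in replicate 1 and as MACS score in replicate 2, both on log axes, by class in shCTR. The medians run from 37.5 to 54.5 tags and from 244 to 352 in score, and the points of the 4 classes overlap.

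Input signal differed by chromosome. Cancer lines carry extra copies of some chromosome segments, and input reads follow the amount of DNA. On chromosome 14 the 24 members had a median input log2 mean of 5.54, or 4.13 per kb, against 4.72, or 3.66 per kb, in the other 415 members. On chromosome X the 7 members had a median of 2.21 per kb. PAX9 at 8.86 and NPAS3 at 8.26, both on chromosome 14 and both in wide regions, had the highest input means of all members. The part of DNA amount in their high PHF19 values was not tested.

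EZH2 peaks in only 1 replicate were common at the members, since the rule asked for both. A peak of replicate 1 overlapped 58 members (13.2%) and a peak of replicate 2 overlapped 183 (41.7%). Over all PHF19 regions an EZH2 region of both replicates was present at 37.0%, the value on which the selection was made. No EZH2 peak in either replicate was found at 200 members (45.6%), a replicate 1 peak only at 56, and a replicate 2 peak only at 181. At ZEB2 and HOXD13 both replicates had a peak inside the member, but the peaks did not meet. Where a peak was present, its median score was 83.9 in replicate 1 and 132 in replicate 2, against 134 and 332 at promoter regions with EZH2. More members thus had an EZH2 peak in some replicate (239, or 54.4%) than had none. The rule removes places where strong peaks of both replicates meet, so nothing is read from these scores.

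SUZ12, the scaffold of the same complex, was not used by the rule. A SUZ12 region of both shCTR replicates overlapped none of the 439 members, beside 4.90% of all PHF19 regions and 12.4% of promoter regions with EZH2. The replicate 1 list overlapped 2 members, NPAS3 and IQSEC2, and the replicate 2 list overlapped 12, among them FOXQ1 with a score of 120, RIPOR2 with 100 and HIC1 with 84.7. All of these members belonged to the class with both H3K27me3 and MTF2, which held 202 of all 439. Each had an EZH2 peak in the replicate that gave the SUZ12 peak. EZH2 peaks of replicates 1 and 2 overlapped 18.3% and 61.4% of that class, and 13.2% and 41.7% of all members. The rule used EZH2 calls, so nothing is read from this. SUZ12 calls were few everywhere, with 62 regions of both replicates in the genome, so that their absence at a member says only that no peak passed the authors' limit.

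H3K27me3, the product of the complex, was called at most members, as it was at most PHF19 regions. A region of both shCTR replicates overlapped 351 members (80.0%), beside 84.0% of all PHF19 regions and 9.72% of all protein-coding promoters. Replicate 1 alone gave 376 members and replicate 2 alone 374. The share at promoter regions with EZH2 was 96.3%. Peak scores were lower at the members, with medians of 331 and 323 in replicates 1 and 2, against 772 and 814 at promoter regions with EZH2. The H3K27me3 regions at members were also narrower, with a median of 5394 bp against 7808 bp. The members thus carried the mark at close to the background share of PHF19 regions and with lower scores than regions with EZH2. The ChIP was made on bulk cells, so a mark in fewer cells and less mark per cell cannot be told apart.

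MTF2, the other Polycomb-like protein, was called less evenly. A region of both shCTR replicates overlapped 221 members (50.3%), beside 62.3% of all PHF19 regions, 93.3% of promoter regions with EZH2 and 4.03% of all protein-coding promoters. Replicate 1 gave 217 members and replicate 2 gave 435 (99.1%). The replicate 1 list held 2516 peaks and marked 4.06% of all promoters, while the replicate 2 list held 32254 and marked 38.1%. The split of members by MTF2 was therefore decided almost wholly by the shorter list. Replicate 2 scores followed that split even so, with medians of 1676 in the class with H3K27me3 and MTF2, 998 with H3K27me3 only, 1080 with MTF2 only and 439 with neither.

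**Figure D3:**
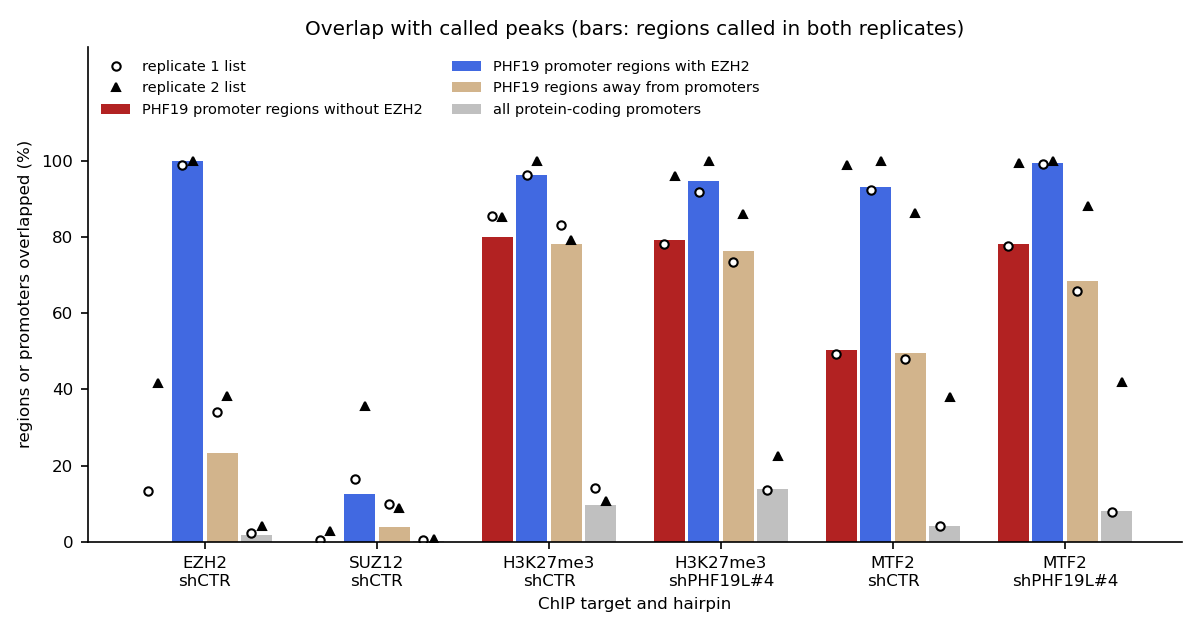
Share of regions or promoters overlapped by peaks of each target, with bars for regions called in both replicates and points for each replicate's own list. At the members the EZH2 and SUZ12 bars are 0, H3K27me3 stands at 80.0% in shCTR, and MTF2 rises from 50.3% in shCTR to 78.1% in shPHF19L#4.

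Taken by both marks, 202 members had H3K27me3 and MTF2, 149 had H3K27me3 only, 19 had MTF2 only and 69 had neither. H3K27me3 scores in replicates 1 and 2 had medians of 407 and 392 in the class with both marks, and of 273 and 267 with H3K27me3 only. Median widths of the H3K27me3 regions were 5873 bp and 4963 bp in the same order. MTF2 and stronger H3K27me3 thus went together in each replicate.

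The members can also be listed by their EZH2 peaks. The rule used these calls, so the shares are a description and nothing is read from them. Of the 200 without any, 64.5% had H3K27me3 and 26.5% had MTF2. With a replicate 1 peak only, 89.3% of 56 had H3K27me3 and 67.9% had MTF2. With a replicate 2 peak only, the shares were 93.9% and 70.7% of 181. Of the 69 members with neither mark, 61 had no EZH2 peak at all. Median CpG ratios were 0.726 without any peak, 0.744 with a replicate 1 peak only and 0.791 with a replicate 2 peak only, and median PHF19 scores were 260, 509 and 359.

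Members at the top of each class show what the classes held. A score of 3100 recurs in these lists and few scores exceed it, up to 3233, so members that share it cannot be ranked by score. With H3K27me3 and MTF2, the NPAS3 region at chr14:33400902-33410266 had 368 tags in replicate 1 and a score of 3100 in replicate 2. The MECOM region at chr3:168863409-168867597, at the gene of a zinc finger regulator of blood stem cells, had 209 tags and a score of 3100. Next came AAMDC with 199 tags and a score of 2499, and DSP, the gene of desmoplakin in cell junctions, with 153 tags and 1968. MAN1A1, a mannosidase of the Golgi, had 135 tags and a score of 1813, and TLX2, a homeobox gene, had 153 tags and 1770. These genes were of several kinds, from transcription factors to junction and sugar-processing proteins.

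With H3K27me3 only, the MYO10 region at chr5:16934083-16938292 had 231 tags and a score of 3100, and the GATA6 region at chr18:19745715-19749449 had 235 tags and 3001. Lower in the same class stood ZNF503, a zinc finger repressor, with 181 tags and a score of 2166, and UNC5B, a netrin receptor, with 257 tags and 2117. ADGRV1, an adhesion receptor of hair cells, had 123 tags and a score of 1997, and SNAPC2, a subunit of the small nuclear RNA transcription complex, had 186 tags and 1904. None of them had MTF2 in the replicate 1 list, but MTF2 scores in replicate 2 were high, from 1370 at ADGRV1 to 3100 at UNC5B and SNAPC2.

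With MTF2 only, the BNC1 region at chr15:83951234-83954520 had 86 tags and a score of 1302, and the MBNL3 region at chrX:131622065-131624619, at the gene of a muscleblind RNA-binding protein, had 40 tags and 1013. MARCKS, a substrate of protein kinase C, had a score of 787, PRDM1, a repressor needed for plasma cells, 502, CDH22, a cadherin, 468, and RNF128, a ubiquitin ligase, 443. The last 4 of these had no PHF19 peak in replicate 1. The class was small and close to the others, because an H3K27me3 peak of replicate 1 overlapped 9 of its 19 members and a peak of replicate 2 overlapped 6 more. Only BMI1, MAT2B, PDGFA and TMEM255A had no H3K27me3 peak in either replicate.

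With neither mark, the IGF1R region at chr15:99192108-99195455 had 158 tags and a score of 1464, and the PAX9 region at chr14:37120697-37133976, at the gene of a paired-box factor of tooth and thymus, had 478 tags and 1353. KLF7, a Krüppel-like factor, had 77 tags and a score of 1259, and RUNX1, a transcription factor of blood, had 107 tags and 1209. C17orf58 had 76 tags and a score of 861, and PTPN21, a tyrosine phosphatase, had 66 tags and 755. These leading scores, picked as the highest, lay above the median of 731 of promoter regions with EZH2. The class as a whole lay lower, with a median of 244 and an upper quartile of 418. A peak of H3K27me3 in 1 replicate was still found in it, at 16 of the 69 members in replicate 1 and at 18 in replicate 2, with median scores of 128 and 126. MTF2 was in the replicate 2 list at 66 of them.

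Depletion of the long isoform of PHF19 was studied with H3K27me3 and MTF2 mapped again in shPHF19L#4. MTF2 and PHF19 share partners and DNA preferences, and the comparison asks how the marks at these promoters stood once PHF19 was lowered. For MTF2, 343 members (78.1%) had a region of both shPHF19L#4 replicates, beside 80.7% of all PHF19 regions and 7.95% of all protein-coding promoters. The call was present with both hairpins at 216 members, with shPHF19L#4 only at 127 and with shCTR only at 5. Replicate 1 went from 217 to 341 members and replicate 2 from 435 to 437. In replicate 2 the list was already full in shCTR, and there the median score rose from 1184 to 3100. A score of 3100 or more was given to 34 members in shCTR and to 234 in shPHF19L#4. Over all PHF19 regions the median replicate 2 score rose as well, from 1605 to 3100, and the upper quartile was 3100 with both hairpins.

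MTF2 thus rose in each replicate, by calls in replicate 1 and by score in replicate 2. The lists grew as well, from 2516 to 4216 peaks in replicate 1 and from 32254 to 34623 in replicate 2, and over all promoters the share with MTF2 went from 4.03% to 7.95%. The part of depth in this rise was not tested, since the files give no read totals. The 5 members called only in shCTR were those of TEKT3, MAT2B, STMND1, GJC3 and CALD1. All of them kept a replicate 2 peak in shPHF19L#4.

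The classes without MTF2 in shCTR could only gain the call, and those with it could only keep or lose it. In the class with H3K27me3 only, 101 of 149 members (67.8%) had MTF2 in shPHF19L#4, and the median replicate 2 score of the class rose from 998 to 2736. In the class with neither, 26 of 69 (37.7%) had MTF2, and the median score rose from 439 to 1066. Among members with MTF2 in shCTR it was kept at 198 of 202 with H3K27me3 and at 18 of 19 without, and the median replicate 2 scores of these classes rose from 1676 to 3100 and from 1080 to 2844. The median score thus rose in all 4 classes, as it did over all PHF19 regions.

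The number of H3K27me3 calls moved in opposite directions in the replicates. With shPHF19L#4 it was called in both replicates at 348 members (79.3%), beside 82.7% of all PHF19 regions and 13.8% of all protein-coding promoters. It was present with both hairpins at 320 members, with shPHF19L#4 only at 28 and with shCTR only at 31. In replicate 1 the number of members fell from 376 to 343, and in replicate 2 it rose from 374 to 422. Over all PHF19 regions the shares moved the same way, from 87.9% to 80.4% in replicate 1 and from 87.3% to 93.6% in replicate 2. By class, replicate 1 went from 202 to 193 members with H3K27me3 and MTF2 and from 149 to 124 with H3K27me3 only. It went from 9 to 11 with MTF2 only and from 16 to 15 with neither. The classes with H3K27me3 began with a replicate 1 peak at every member and could only fall. The selection thus sets this difference, and nothing is read from it. In replicate 1 the median score was 331 over the 376 members with a peak in shCTR and 336 over the 343 in shPHF19L#4. These medians cover different members, since 43 lost the peak, so no stability is read from them. Over all PHF19 regions the replicate 1 median went from 530 to 448, and at promoter regions with EZH2 from 772 to 564. In replicate 2 the median of the members rose from 323 to 1864. The lists moved as the calls did, from 39254 to 35128 peaks in replicate 1 and from 15994 to 57026 in replicate 2. A difference between hairpins in H3K27me3 calls did not hold over both replicates.

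Taking both marks again in shPHF19L#4, 304 members had both, 44 had H3K27me3 only, 39 had MTF2 only and 52 had neither. Of the 202 that began with both marks, 189 kept both, 4 were left with H3K27me3 only and 9 with MTF2 only. Of the 149 that began with H3K27me3 only, 91 came to have both, 36 stayed, 10 had MTF2 only and 12 had neither. Of the 19 with MTF2 only, 12 came to have both, 6 stayed and 1 had neither. Of the 69 with neither, 39 stayed, 14 had MTF2 only, 12 had both and 4 had H3K27me3 only. RUNX1, PTPN21, OTX1, FOXE1, DUSP6 and JAG1 were among the members called for neither mark under either hairpin, while KLF7, NOTCH1, SYNE1 and GRIN2D were among those that came to have both.

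**Figure D4:**
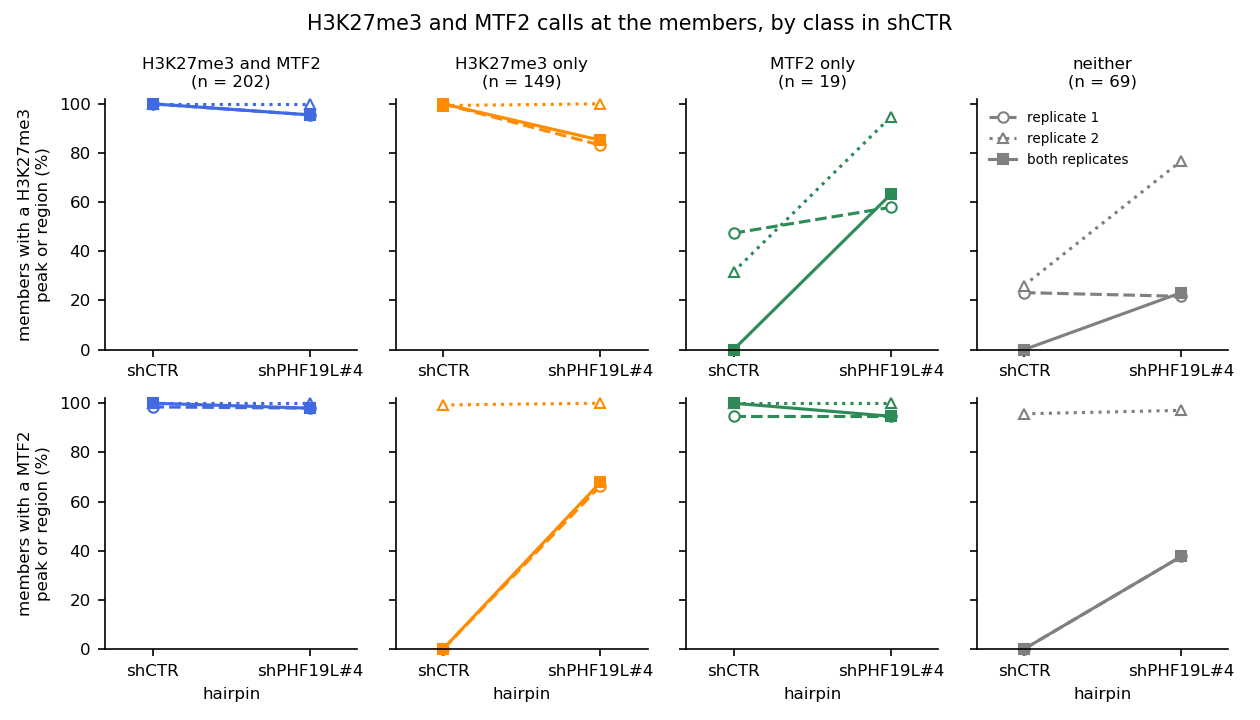
Share of the members of each shCTR class with an H3K27me3 peak (upper row) or an MTF2 peak (lower row) in shCTR and shPHF19L#4, for each replicate and for regions called in both. MTF2 in replicate 1 rises from 0% to 66.4% in the class with H3K27me3 only and from 0% to 37.7% in the class with neither, values whose start the classes fix.

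The authors' comparison of the hairpins was available as tables of the regions that passed it, with a log2 mean for each group and none for each replicate. Nearly every region in these tables had the higher mean in shPHF19L#4, for example 2407 of the 2408 EZH2 regions and 2539 of the 2546 MTF2 regions, so the direction at the members is set by the tables. What can be read is which members were listed. An EZH2 region was listed at 337 members (76.8%), beside 75.6% of all PHF19 regions and 98.0% of promoter regions with EZH2. An MTF2 region was listed at 316 members (72.0%), beside 73.3%. SUZ12 was listed at 80 (18.2%), beside 31.5%, and H3K27me3 at 24 (5.47%), beside 2.65%. The shares for EZH2 and MTF2 were thus close to those of all PHF19 regions.

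Over the listed members, the authors' mean for EZH2 had a median of 6.53 in shCTR and 7.69 in shPHF19L#4. MTF2 had medians of 8.13 and 9.00 where it was listed. SUZ12 had 5.73 and 6.85, and H3K27me3 had 6.79 and 7.94. Every listed member had the higher mean in shPHF19L#4. EZH2 was listed at 191 of 202 members with H3K27me3 and MTF2, 109 of 149 with H3K27me3 only, 15 of 19 with MTF2 only and 22 of 69 with neither. MTF2 was listed at 188, 90, 16 and 22 members of these classes. H3K27me3 had another order, with 6, 5, 1 and 12. The regions of NOTCH1, ZFPM1, GJA3, NAV2 and SYNE1, all of the class with neither, were among the members listed for H3K27me3. At NOTCH1 the authors' mean of H3K27me3 was 6.45 in shCTR and 7.93 in shPHF19L#4, and at ZFPM1, a cofactor of GATA proteins, it was 6.55 and 8.22.

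Single members show the range of the EZH2 means. At NPAS3 the authors' mean of EZH2 was 10.13 in shCTR and 11.22 in shPHF19L#4, the highest of all members. At PAX9 it was 9.19 and 10.07, and at IGF1R 6.89 and 7.70. BMI1 had the lowest mean in shCTR, 4.68, with 6.49 in shPHF19L#4. NPAS3 and PAX9 also had the highest input means of all members, 8.26 and 8.86. The part of DNA amount in their EZH2 means was not tested.

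**Figure D5:**
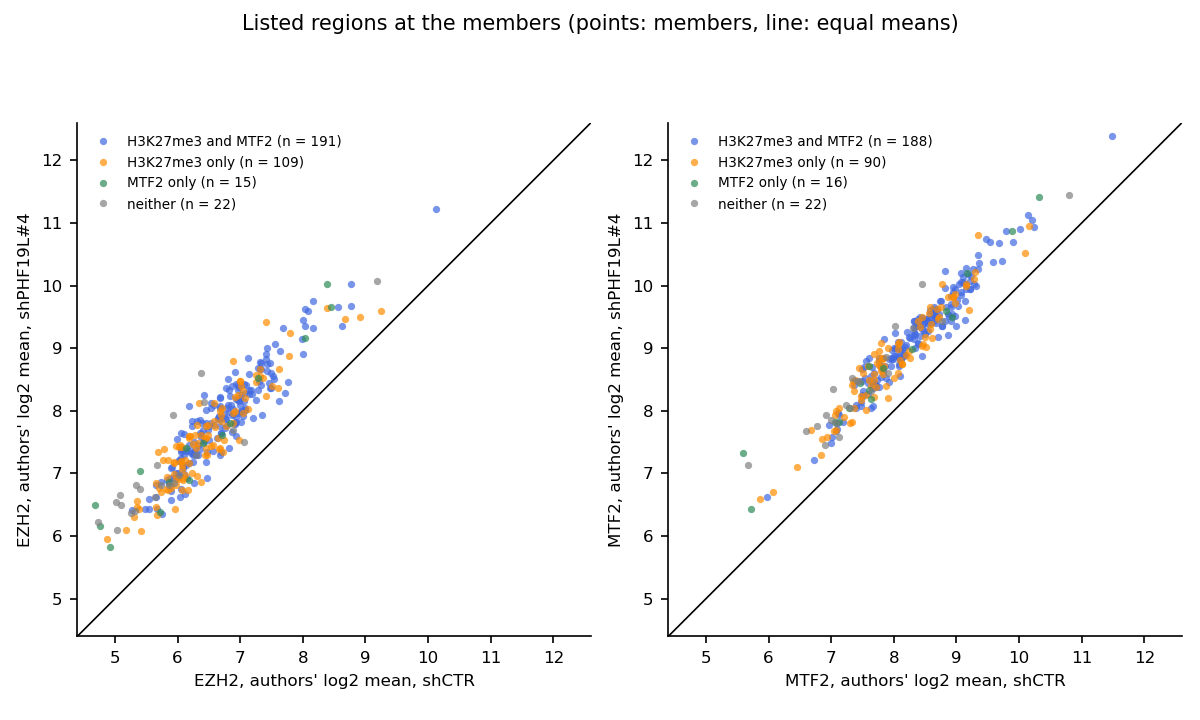
Authors' log2 means of EZH2 (left) and MTF2 (right) in shCTR and shPHF19L#4 for the members listed in each table, coloured by class, with a line of equal means. All 337 and 316 points lie above the line, as nearly all regions of the tables do.

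The genes that the study names as PHF19 targets were looked up next. Of these 19 genes, 6 had a member at a start, 11 had a promoter region with EZH2 and no member, and EPHB3 and HMGA2 had neither. None of the members at the 6 genes had an EZH2 peak in either replicate, as held for 200 of all 439 members (45.6%). The rule used EZH2 calls, so nothing is read from this. The 6 genes included hypoxia genes, which respond to low oxygen through HIF factors, and genes of tissue remodelling and migration.

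EGLN3, at chr14:34417200-34423051, had 172 tags in replicate 1 and a score of 549 in replicate 2 for PHF19. Its H3K27me3 scores in shCTR were 723 in replicate 1 and 1028 in replicate 2, and in shPHF19L#4 replicate 1 had no peak and replicate 2 a score of 3100. MTF2 was in the replicate 2 list only, with a score of 2313 in shCTR and 3043 in shPHF19L#4. The authors' mean there was 8.92 in shCTR and 9.49 in shPHF19L#4 for EZH2, and 7.75 and 8.35 for SUZ12. The replicates thus differed in direction for H3K27me3 at this gene. ADM, the gene of the vessel-widening peptide adrenomedullin, had 2 members. The upstream one at chr11:10323352-10326518 had 112 tags and a score of 916, and the one over the gene at chr11:10326646-10329497 had 60 tags and 289. Both were in the class with H3K27me3 only, but with unequal H3K27me3 scores of 274 and 347 upstream and 78.8 and 51.1 over the gene. In shPHF19L#4 neither had an H3K27me3 peak in replicate 1, and both had a peak in replicate 2, with scores of 955 upstream and 501 over the gene. The upstream member still overlapped a region of both replicates, because merged peaks reached it.

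SOX9, at chr17:70114827-70117239, had 70 tags and a score of 1453, with H3K27me3 scores of 81.6 and 249. It was in the class with H3K27me3 only and stayed there in shPHF19L#4. NDRG2, a stress-response gene, shared its member at chr14:21536662-21538462 with ARHGEF40, and that region had 44 tags and a score of 254. LOX, at chr5:121412245-121414520, had 82 tags and a score of 206 and belonged to the class with neither in shCTR. An MTF2 region was called there in shPHF19L#4, where the replicate 2 score was 3100 against 993 in shCTR. CXCR4, a chemokine receptor, had no replicate 1 peak and a score of 174 at chr2:136875827-136877528. Its class was H3K27me3 and MTF2 under both hairpins, and an EZH2 region lay 337 bp away, at the same gene. The named genes thus spread over 3 classes, and most had H3K27me3, which 80.0% of all members had.

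Gene families were read from 26 lists, each as the number of genes with a member and with a promoter region with EZH2. Over all protein-coding genes these shares were 2.28% and 1.78%. Developmental transcription factors are the best known Polycomb targets, and homeobox genes lead among them. Outside the HOX clusters, 32 of 168 homeobox genes (19.0%) had a member and 37 (22.0%) had a promoter region with EZH2. TLX2 was followed there by LHX4 with 125 tags and a score of 1597, PAX9, and BARX2 with 150 tags and 1167. Of their 35 members, 20 were in the class with H3K27me3 and MTF2, which held 202 of all 439. Among 39 HOX cluster genes, 4 (10.3%) had a member and none had a promoter region with EZH2. These were HOXD12 with a score of 713, HOXD13 with 710, HOXB8 with 663 and HOXD11 with 101, and their 5 members all had an H3K27me3 call, which 80.0% of all members had.

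Other transcription factor families differed among themselves. Members lay at 5 of 53 forkhead genes (9.43%), with FOXN4 at a score of 1030, FOXP1 at 950, FOXQ1 at 718 and FOXE1 at 401, and 9 (17.0%) had a promoter region with EZH2. Among GATA and T-box genes, 3 of 23 (13.0%) had a member, GATA6, TBX2 with a score of 998 and TBR1 with 894. All of their 4 members were in the class with H3K27me3 only, which held 149 of all 439. Only SOX9 of 20 SOX genes had a member, while 5 had a promoter region with EZH2. OLIG2 with a score of 288, ASCL4 with 181 and NEUROD1 with 104 were the 3 of 38 neural bHLH genes with a member, beside 6 with EZH2. These counts are small, and their differences were not tested. Of 508 genes named ZNF, which encode zinc finger proteins of the C2H2 kind, only ZNF503 and ZNF800 had a member.

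Signalling genes were next. Notch signalling passes between touching cells through membrane ligands and receptors, and 6 of 28 of its genes (21.4%) had a member, beside 4 (14.3%) with EZH2. These were the receptor NOTCH1 with a score of 173, the ligands DNER with 383, DLL4 with 146 and JAG1 with 119, the ubiquitin ligase DTX4 with 516, and HES2, of a family of repressors that Notch turns on, with 159. NOTCH1 and JAG1 were in the class with neither, though MTF2 was in the replicate 2 list at both, with scores of 1332 and 632. Of BMP and TGF-beta genes 5 of 65 (7.69%) had a member. All of these members were in the class with H3K27me3 and MTF2, which held 202 of all 439. FST, whose product binds activin, had a score of 1708, the receptor BMPR1B 599, the decoy receptor BAMBI 483 and FSTL1 304. WNT genes had members at 3 of 52 (5.77%) and EZH2 regions at 8 (15.4%). These members lay at the antagonist WIF1 with a score of 255, the receptor FZD8 with 139 and the ligand WNT16 with 93.2.

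Hedgehog genes had members at GLI3, with a score of 193, and GLI4, with 520, of 18 genes, and EZH2 regions at 4. FGF genes and receptors had members at FGF11 with 415, FGF18 with 295 and FGFR2 with 278, which are 3 of 29, and EZH2 regions at 3. EFNB2, an ephrin, with a score of 548, was the only member among 22 Eph receptor and ephrin genes. DUSP6, a phosphatase that damps ERK, with 306, was the only member among 31 feedback inhibitors of MAP kinases, and it was in the class with neither under both hairpins. KLF7, EGR4 with a score of 230 and EGR2 with 116 were the 3 of 37 immediate early genes with a member. Retinoid genes had members at CYP26A1, which breaks down retinoic acid, with 511, and at RBP4, which carries retinol, with 219, of 38 genes. In these small lists the sets with and without EZH2 differed by few genes.

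Genes of the response to low oxygen and of the extracellular matrix followed. Of 29 hypoxia genes, 5 (17.2%) had a member and 1 (3.45%) had a promoter region with EZH2. The latter was CXCR4, which also had a member. The genes with a member were ADM, EGLN3, LOX, CXCR4 and EPAS1. EPAS1, the gene of HIF-2 alpha, had 81 tags and a score of 841 at chr2:46524661-46527923. The list includes genes that the study itself names, so its share is a description of that choice as well. Of its 6 members, 4 were in the class with H3K27me3 only, which held 149 of all 439. In shPHF19L#4, 2 of the 6 had an MTF2 call, which 78.1% of all members had. Among 56 collagen and laminin genes, 7 (12.5%) had a member and 1 (1.79%) a promoter region with EZH2. COL4A1 and COL4A2, which encode chains of basement membrane collagen, share 1 member with 87 tags and a score of 741. COL8A1 had a score of 803 and COL9A3 483. Of the 6 members at these matrix genes, 5 were in the class with H3K27me3 and MTF2, which held 202 of all 439.

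Genes of excitable cells, of transport and of chromatin complete the lists. Channel genes for potassium, calcium and sodium had members at 6 of 135 (4.44%), with CACNB4 at a score of 789 and KCNMB4 at 639, and EZH2 regions at 10. Receptors of neurotransmitters had members at 6 of 105 (5.71%), with ADRA1A at 623 and HTR1F at 429, and EZH2 regions at 5. Solute carriers had members at 11 of 351 (3.13%), with SLC6A4, the serotonin transporter, at 756 and SLC8A3 at 451, and EZH2 regions at 7. Polycomb genes themselves had members at EPOP, an accessory subunit of the complex, with a score of 965, and at BMI1, a subunit of Polycomb repressive complex 1, with 352, of 37 genes. EPOP was in the class with H3K27me3 only and BMI1 in the class with MTF2 only. Of 60 core histone genes, H3C11 and H4C13 shared a member with a score of 222. No member lay at the 53 clustered protocadherin genes, the 21 cell cycle inhibitor genes or the 81 ribosomal protein genes, and none of these had a promoter region with EZH2 either.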

How the data were processed

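Reads had been mapped by the authors with Bowtie to hg19, with fruit fly chromosomes added for libraries that held fly chromatin as a spike-in, and peaks called with MACS for each replicate against its control. The peak values were used as deposited, with no scaling to the spike-in. The deposited lists give tags (a count of reads in a peak, not normalized) for PHF19 replicate 1, a MACS score for the other scored lists, and positions only for MTF2 replicate 1. The deposited DiffBind tables give log2 means of normalized reads per group, as made by the authors. Their columns of fold, P value and FDR hold the authors' own test and were not used.

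Starts came from protein-coding transcripts of the basic set of GENCODE release 44, mapped to GRCh37. Regions of both replicates were made by merging overlapping peaks and keeping those with a peak of each, and an overlap of 1 bp counted. A member may thus overlap such a region without overlapping a peak of each replicate. Promoters for comparison were 2.5 kb to each side of the main start of 19540 genes. CpG was counted in 1 kb around midpoints.

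No test was run, because regions are not replicates and an exact permutation of 2 libraries against 2 cannot go below a p of 0.333. The members and lists were chosen with earlier results of these data known. Genes were named by a rule, which took the 6 highest replicate 2 PHF19 scores in each class, genes that the study names, up to 4 genes per list and members next to the limits; some others are given as examples of a count. Input was read only as the log2 mean in the PHF19 table. IgG, the other shPHF19L#4 lists and RNA-seq were not analysed. Read totals are not in the files, so depth is unknown. Overlap counts were checked against bedtools 2.31.1. Python 3.11.15, numpy 2.4.6, pandas 2.3.3, scipy 1.17.1, pysam 0.24.0, samtools 1.23.1 and matplotlib 3.10.9 were used.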

Additional observations from a re-analysis of the deposited data

How the results depend on the processing

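The set of 439 members depends on how EZH2 is called. Counting an EZH2 peak of either replicate leaves 200 members, and leaving out 1 EZH2 replicate gives 256 to 385. Asking for an EZH2 score of at least 100 gives 587 (47.1% of the PHF19 regions). Asking for a PHF19 peak in both replicates leaves 243. Taking the starts of all protein-coding transcripts, an alternative chosen after the data were seen, gives 450.

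H3K27me3 in shCTR was found at 351 members, at 129 of the 200 without any EZH2 peak (64.5%) and at 199 of the 243 with PHF19 in both replicates (81.9%). In shPHF19L#4 it was found at 348, at 129 of the 200 (64.5%) and at 191 of the 243 (78.6%).

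MTF2 in shCTR depends on 1 list. The count of 221 becomes 217 to 435 when a replicate is left out and 435 when either counts, and it is 53 of the 200 (26.5%) and 128 of the 243 (52.7%). In shPHF19L#4 the count of 343 becomes 121 of the 200 (60.5%) and 194 of the 243 (79.8%). SUZ12, found at 0 members, is found at 2 to 12 when a replicate is left out and at 14 when either counts.

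The authors' tables list EZH2 at 116 of the 200 (58.0%) and MTF2 at 106 (53.0%). The median CpG ratio of 0.761 becomes 0.710 over whole regions and 0.726 in the 200.

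A peak list holds only what passed its limit, so a missing peak is not a missing protein. Lists of the replicates differ in length, and 1 hairpin in 1 cell line was used. No paired test was run, and no result comes from a test that takes a replicate block. Peak lists of the hairpins were set side by side within each replicate, and the authors' tables give group means only.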
